A study of Mus musculus with 45 samples.

Results

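De novo purine synthesis was described through 10 genes, *Ppat*, *Gart*, *Pfas*, *Paics*, *Atic*, *Impdh1*, *Impdh2*, *Gmps*, *Prps1* and *Prps2*. They were chosen by name, as genes of the pathway and of the adjoining steps to GMP, and found by gene symbol in the deposited CPM table. All 10 were present there among 11900 genes and in the count table among 29307, and all 10 passed the filter on low counts, which left 12905 genes for testing.

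The pathway builds the purine ring directly on ribose phosphate. The PRPP synthetases make the activated sugar, PPAT commits it to purine synthesis by adding the first nitrogen, and GART, PFAS, PAICS, the lyase ADSL and ATIC then assemble the ring to IMP, the branch point to AMP and GMP. IMP dehydrogenase and GMP synthetase lead from IMP to GMP. Cells can instead recycle bases and nucleosides by salvage, and dividing cells are known to draw strongly on de novo synthesis.

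Bone marrow-derived macrophages came from C57BL/6N mice, 6 to 10 weeks old, engineered in the germline to express 1 of 3 variants of FAMIN, a purine enzyme encoded by mouse *Lacc1*: p.254I (the non-risk variant), p.254V (the risk variant) or p.284R (the variant of monogenic disease). Cells were cultured for 6 days and polarized for 24 h to M1 by IFN-γ at 50 ng/mL together with LPS at 20 ng/mL, to M2 by IL-4 at 20 ng/mL, or left as M0. Taking cultures with the same genotype and replicate number as those of 1 mouse, there were 5 mice of each genotype with 3 cultures each. They gave 45 RNA-seq libraries in 9 groups of 5. A comparison of polarizations thus set 15 libraries against 15 from the same 15 mice. All groups carried an engineered allele, and an unmodified mouse was not analysed here.

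Total counts ranged from 17239009 to 43740283 per library (median 27553642), and the members had between 115 (*Prps1*) and 6642 (*Paics*) reads in a library. Levels are TMM-scaled CPM (reads of a gene divided by the library total and set to a common scale). Summed macrophage markers ranged from 20040 to 33460 CPM in M0, above all M1 libraries (11290 to 15150) and all M2 libraries (9635 to 13880). *Lyz2* made the largest part of this sum, with means of 17020 CPM in M0, 5980 in M1 and 5318 in M2. *Adgre1*, *Csf1r*, *Cd68* and *Cd14* also had lower means in M1 and M2. *Fcgr1* (405 to 1210 CPM) and *Mertk* (192 to 205) had higher means in M1 than in M0, and *Itgam* (304 to 362) in M2. The summed M1 markers ranged from 11800 to 17540 CPM in M1 and reached at most 302 CPM elsewhere, and the summed M2 markers ranged from 5179 to 15210 CPM in M2 and reached at most 925 CPM elsewhere. Of the 5 dendritic cell markers, *Clec9a* reached 422 CPM and *Xcr1* 10.6 CPM in M1, *Zbtb46* reached 12.4 CPM in M2, and *Flt3* and *Siglech* stayed under 1 CPM in every library. T cell, mast cell and erythroid markers were near 0, and the summed neutrophil markers reached 204 CPM in M0, 97.0 in M1 and 58.9 in M2. Summed stromal markers ranged from 16.3 to 89.8 CPM in M0, 7.53 to 20.8 in M1 and 9.85 to 32.8 in M2, B cell markers reached 11.8, 9.54 and 4.51 CPM, and endothelial markers 12.6, 13.5 and 22.2 CPM. The part of these markers in the differences between polarizations was not tested. A few libraries stood apart. M0 library 4 of *Famin* p.254I had 1098 CPM of the Fc receptor gene *Fcgr1*, against at most 463 CPM in the other M0 libraries, and the M2 library of the same mouse had 153 CPM, against at most 55.1. Without all 3 cultures of that mouse, 8 members were called in M1 and 8 in M2 against M0 and 10 in M1 against M2, as with them. M1 library 5 of *Famin* p.254I held 49.1 CPM of the M2 marker *Retnla*, against at most 0.249 CPM in the other M1 libraries. The 3 M1 libraries of replicate number 2 had 3.01 to 8.60 CPM of the nitric oxide synthase gene *Nos2*, against 17.9 to 149 CPM in the other 12. In *Famin* p.284R, *Lacc1* itself varied widely in M1 (218 to 584 CPM), against 486 to 523 CPM in *Famin* p.254I. In bulk cultures like these, fewer cells of a type and less RNA per cell cannot be told apart.

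The members lie on 8 chromosomes of mm10, and *Ppat* and *Paics* are head-to-head neighbours. *Ppat* runs on the minus strand of chromosome 5 from 76913249 to 76951578 and *Paics* on the plus strand from 76951307 to 76967509, so their 5′ exons overlap. In RefSeq (GRCm38.p6) their start sites are 276 bases apart. Promoter windows from 250 bases before to 50 after the start site were found for 9 of the 10 genes; *Pfas* was the other. The windows of the divergent pair and of *Atic* and *Prps1*, the genes with the largest differences in M2, are given 5′ to 3′ on the strand of the gene, in the order chr5:76951529-76951828 (minus), chr5:76951052-76951351 (plus), chr1:71556906-71557205 (plus) and chrX:140456353-140456652 (plus). Capitals mark matches on either strand to the MYC E-box CACGTG, the ETS motif CCGGAAGT, the E2F motifs TTTGGCGC and TTTCCCGC or the ATF4 motif TGATGNAAT.
Ppat: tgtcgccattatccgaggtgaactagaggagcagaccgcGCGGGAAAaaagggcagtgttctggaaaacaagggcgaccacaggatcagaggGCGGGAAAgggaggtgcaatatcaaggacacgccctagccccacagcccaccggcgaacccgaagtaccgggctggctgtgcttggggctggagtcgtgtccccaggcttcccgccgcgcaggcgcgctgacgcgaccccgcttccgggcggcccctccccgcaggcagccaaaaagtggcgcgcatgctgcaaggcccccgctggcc
Paics: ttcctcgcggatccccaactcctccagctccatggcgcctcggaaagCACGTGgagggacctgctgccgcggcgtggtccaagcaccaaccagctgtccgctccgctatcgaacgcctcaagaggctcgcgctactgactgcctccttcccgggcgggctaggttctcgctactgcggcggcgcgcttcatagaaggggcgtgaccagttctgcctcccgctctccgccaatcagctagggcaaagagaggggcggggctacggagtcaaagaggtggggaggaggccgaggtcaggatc
Atic: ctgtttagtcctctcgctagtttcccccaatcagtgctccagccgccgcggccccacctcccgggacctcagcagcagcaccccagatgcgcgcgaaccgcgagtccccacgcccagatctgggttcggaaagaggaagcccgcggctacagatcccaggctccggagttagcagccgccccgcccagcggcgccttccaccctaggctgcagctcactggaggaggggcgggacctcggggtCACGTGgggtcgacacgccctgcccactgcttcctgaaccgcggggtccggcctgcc
Prps1: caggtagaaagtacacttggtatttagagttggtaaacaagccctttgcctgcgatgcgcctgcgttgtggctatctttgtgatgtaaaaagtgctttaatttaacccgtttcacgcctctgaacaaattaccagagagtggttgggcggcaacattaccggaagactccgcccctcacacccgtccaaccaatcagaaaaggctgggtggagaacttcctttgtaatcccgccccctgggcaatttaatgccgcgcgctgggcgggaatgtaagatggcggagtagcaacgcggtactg

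The E-box stood 203 bases upstream of the start site in *Paics*, 7 bases upstream in *Atic* and 110 bases upstream in *Impdh2*, that is in 3 of 9 genes, and in 7.15% of all 32851 windows of the same length. E2F motifs were found in *Ppat* (2 matches) and *Prps2*, and in 1.56% of all windows. *Gart* held the ETS motif, found in 3.89% of all windows. ATF4 motifs were in none of the 9 genes and in 0.965% of all windows, and the *Prps1* window held none of the motifs searched, which says only that these letters are not in this window.

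Some members share sequence with other genes, and how reads were counted at such places was not given in the sources used here. Of the 50-base words of *Impdh2* exons, 39.3% also occur in the pseudogene *Impdh2-ps*, which was not analysed here, so the level of *Impdh2* is uncertain. *Prps1* shared 9.93% with the retrogene *Prps1l3*, which had 10.5 to 17.8 CPM in these libraries. *Gart* shared 15.5% with *Gm15964* on the opposite strand, which had at most 2.02 CPM. *Paics* and *Ppat* shared 9.01% and 5.46%, in part with each other.

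Divided by the combined length of all annotated exons of a gene, the members spanned an order from *Paics* to *Pfas* in every polarization. A single transcript can be shorter than this length (7.985 kb for *Atic*, 5.144 kb for *Gart*), so the order between genes depends on it. In M0, *Paics* had 43.2 ± 2.71 CPM per kb (SD, n = 15), and its range did not overlap that of *Prps2*, the next gene, at 14.4 ± 0.985. *Prps2*, *Impdh1*, *Gart*, *Atic*, *Gmps*, *Prps1*, *Ppat*, *Impdh2* and *Pfas* followed in that order, with each neighbouring pair overlapping, down to 2.27 ± 0.223 CPM per kb for *Pfas*. *Paics* also led in M1 (35.8 ± 4.12) and M2 (46.3 ± 2.64), apart from the gene below it each time. *Atic* stood below *Gart* in M0 and M1 and came directly after *Paics* in M2, at 21.1 ± 1.29 CPM per kb, where its range overlapped that of *Gart*.

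**Figure D1:**
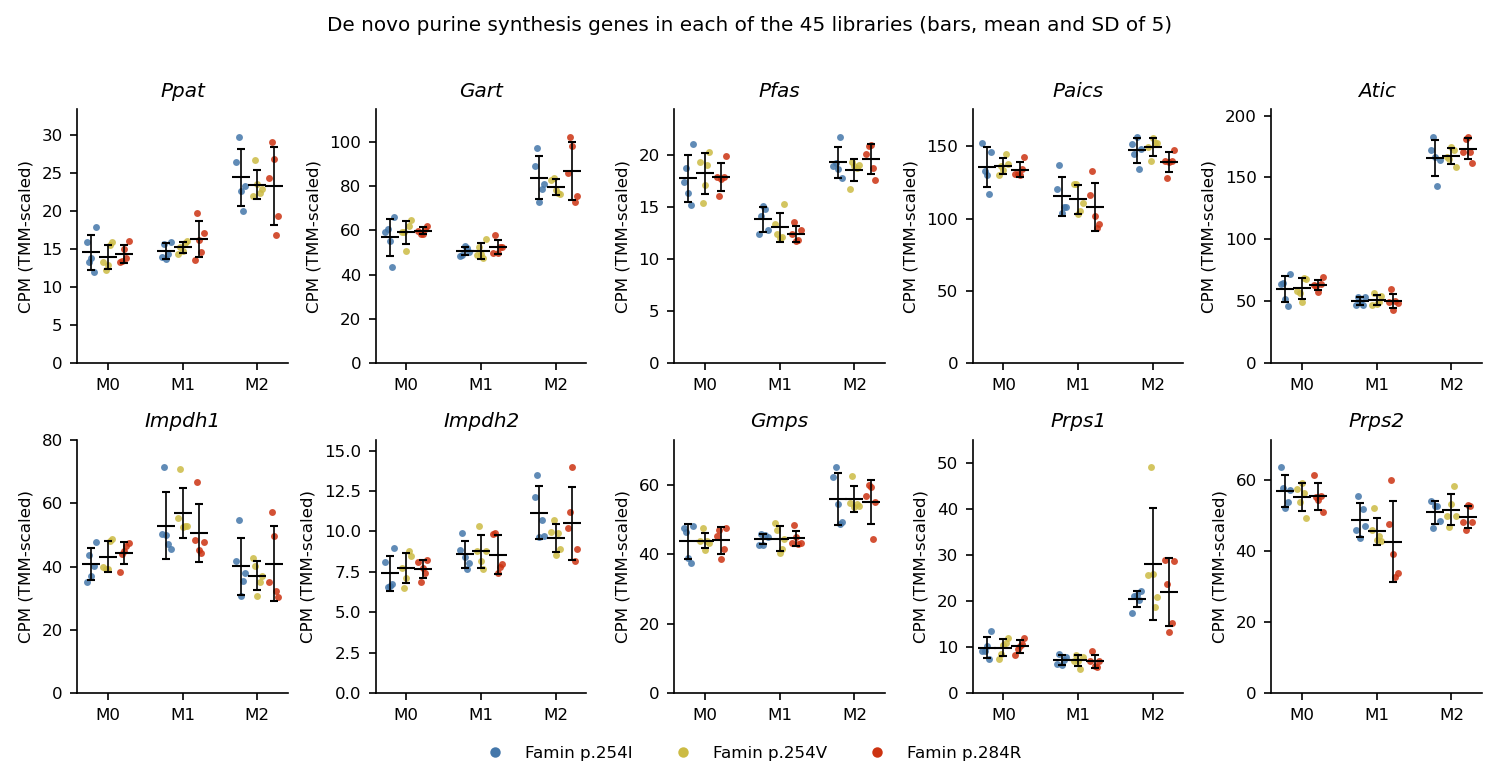
TMM-scaled CPM of each member (y axis, from 0) in every library, by polarization (x axis) and genotype (colour), with the mean and SD of the 5 libraries of each group. *Atic* in M2 sits between 143 and 183 CPM, above all M0 and M1 libraries, while the genotypes overlap in every panel.

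M2 against M0 asks how the transcript levels of the pathway differ after IL-4. Transcript levels do not measure synthesis itself. The study traced labelled glutamine and reported that macrophages rely on salvage, with very little de novo synthesis in M1 macrophages. The ring-building enzymes at its ends and the PRPP synthetase *Prps1* rose, *Prps2* fell slightly, and *Pfas* and *Impdh1* did not pass the test. Of the 10 members, 7 were called higher and 1 lower (edgeR quasi-likelihood test, adjusted p under 0.05), where 76.8% of all genes tested were called, 37.0% higher and 39.8% lower. The members' median log2 fold change was 0.40, and that of all genes was -0.03.

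*Atic* encodes the enzyme of the last steps to IMP. It had 46.0, 63.0 and 71.9 CPM (lowest, median and highest of 15) in M0 and 143, 170 and 183 CPM in M2. Every M2 library lay above every M0 library. The difference was 2.76-fold (log2 1.47, SE 0.05, adjusted p = 1.4e-25), higher in 15 of 15 mice, with mean differences of 1.47 in *Famin* p.254I, 1.47 in p.254V and 1.44 in p.284R on the log2(CPM + 1) scale.

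*Prps1*, a PRPP synthetase gene on the X chromosome, had 7.43, 10.2 and 13.6 CPM in M0 and 13.4, 21.2 and 49.1 CPM in M2. Higher values in M2 were seen in 15 of 15 mice, although the lowest M2 library was just below the highest M0 library. The rise was 2.32-fold (log2 1.21, SE 0.12, adjusted p = 4.9e-12). The top value of 49.1 CPM came from replicate 2 of *Famin* p.254V, and without the libraries of number 2 the log2 fold change was 1.07 (adjusted p = 1.5e-09). *Prps2*, its paralog, moved the other way. It had 49.2, 55.4 and 63.6 CPM in M0 and 45.7, 49.8 and 58.3 CPM in M2, with broadly overlapping ranges. The log2 fold change of -0.14 (SE 0.06, adjusted p = 0.026) was lower in 12 of 15 mice, and 4 of the 15 fits that left out 1 mouse did not call it.

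*Ppat*, the committing amidotransferase, had 12.0, 13.8 and 17.9 CPM in M0 and 16.8, 23.3 and 29.8 CPM in M2. The ranges overlapped only at their edge, and all 15 mice were higher in M2. It rose 1.66-fold (log2 0.73, SE 0.07, adjusted p = 1.2e-12). *Gart*, a multifunctional enzyme of the early ring steps, had 43.5, 59.3 and 66.0 CPM in M0 and 72.7, 81.0 and 102 CPM in M2. Its ranges did not overlap, and the rise was 1.42-fold (adjusted p = 4.0e-12). Together with *Atic* it made 2 members with ranges apart, where 23.4% of all genes had them.

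*Paics* and *Pfas*, in the middle of the pathway, differed little between M2 and M0, while the lyase gene *Adsl*, which is not among the 10, rose 1.60-fold (adjusted p = 3.5e-17). *Paics*, which carboxylates the intermediate and adds aspartate, had 117, 134 and 152 CPM in M0 and 128, 148 and 157 CPM in M2. It was called at a log2 value of 0.10 (SE 0.04, adjusted p = 0.036), but 5 of the 15 fits that left out 1 mouse, the fit without M0 library 4 of *Famin* p.254I and the fit without a filter on low counts did not call it. *Pfas*, which makes the amidine intermediate FGAM, had 15.3, 17.9 and 21.1 CPM in M0 and 16.8, 19.0 and 21.8 CPM in M2. Its log2 difference was 0.09 (95% interval -0.002 to 0.19, adjusted p = 0.069), and 4 of the fits that left out 1 mouse did call it.

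On the branch to GMP, *Impdh2* and *Gmps* rose. *Impdh2* had 6.53, 7.75 and 8.95 CPM in M0 and 8.16, 9.99 and 14.0 CPM in M2. This was 1.37-fold higher (log2 0.45, SE 0.07, adjusted p = 2.4e-07), in 15 of 15 mice. *Gmps*, GMP synthetase, had 37.7, 43.9 and 48.0 CPM in M0 and 44.5, 54.7 and 65.2 CPM in M2, a 1.27-fold rise (adjusted p = 1.7e-08) seen in 15 of 15 mice. *Impdh1* had 35.1, 43.6 and 48.7 CPM in M0 and 30.5, 37.2 and 57.4 CPM in M2. The difference was -0.12 on the log2 scale (95% interval -0.29 to 0.06, adjusted p = 0.22). Without the libraries of number 2 it was -0.23 and called (adjusted p = 0.0039).

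M1 against M0 asks the same of IFN-γ and LPS, with the same M0 libraries. Most synthesis genes were lower and both IMP dehydrogenase genes were higher. There were 2 members called higher and 6 called lower, where 77.6% of all genes were called, 37.2% higher and 40.5% lower. The median log2 fold change was -0.23 for the members and -0.03 for all genes. No member had ranges apart, against 28.6% of all genes.

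*Prps1* fell most. It had 5.34, 7.03 and 9.27 CPM in M1, below the M0 median in every library, and was lower in 15 of 15 mice. The log2 fold change was -0.49 (SE 0.12, adjusted p = 0.00047). *Prps2* had 32.6, 45.8 and 59.9 CPM in M1. It was lower in 14 of 15 mice, and the mean difference was -0.29 on the log2 scale (SE 0.06, adjusted p = 1.8e-05). The highest M1 library, at 59.9 CPM, and the lowest both came from *Famin* p.284R.

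*Pfas* had 11.7, 12.8 and 15.3 CPM in M1. Its highest M1 library exceeded the lowest M0 library by a margin of hundredths of a CPM, and all 15 mice were lower. The fall was 0.46 on the log2 scale (95% interval -0.55 to -0.36, adjusted p = 2.6e-11). *Paics* had 93.9, 108 and 137 CPM in M1 and fell by 0.27 (SE 0.04, adjusted p = 7.2e-07). *Atic* had 43.1, 49.4 and 59.6 CPM in M1 and fell by 0.28 (SE 0.05, adjusted p = 9.8e-06). *Gart* had 47.4, 50.3 and 57.7 CPM in M1 and fell by 0.19 (SE 0.05, adjusted p = 0.00061). Lower values were found in 13 mice for *Paics* and in 14 for *Atic* and *Gart*, with overlapping ranges throughout. *Ppat* had 13.6, 15.2 and 19.7 CPM in M1, and its difference of 0.11 (95% interval -0.03 to 0.24) did not pass the test (adjusted p = 0.16).

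*Impdh1* had 44.4, 50.2 and 71.5 CPM in M1 and was 1.25-fold higher than in M0 (log2 0.32, SE 0.09, adjusted p = 0.00088), in 13 of 15 mice. The 3 libraries of replicate number 2 stood above the rest. They had 71.5 CPM in *Famin* p.254I, 70.9 in p.254V and 66.7 in p.284R, and the other 12 had 44.4 to 55.4 CPM. Without number 2 the log2 fold change was 0.22 (adjusted p = 0.0043). The same 3 libraries had 61.2 to 74.6 CPM of the proliferation marker *Mki67*, against 23.2 to 43.2 CPM in the other M1 libraries, and the least *Nos2*. The part of these in the level of *Impdh1* was not tested, and what the replicate number stands for across genotypes was not given in the sources used here.

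**Figure D2:**
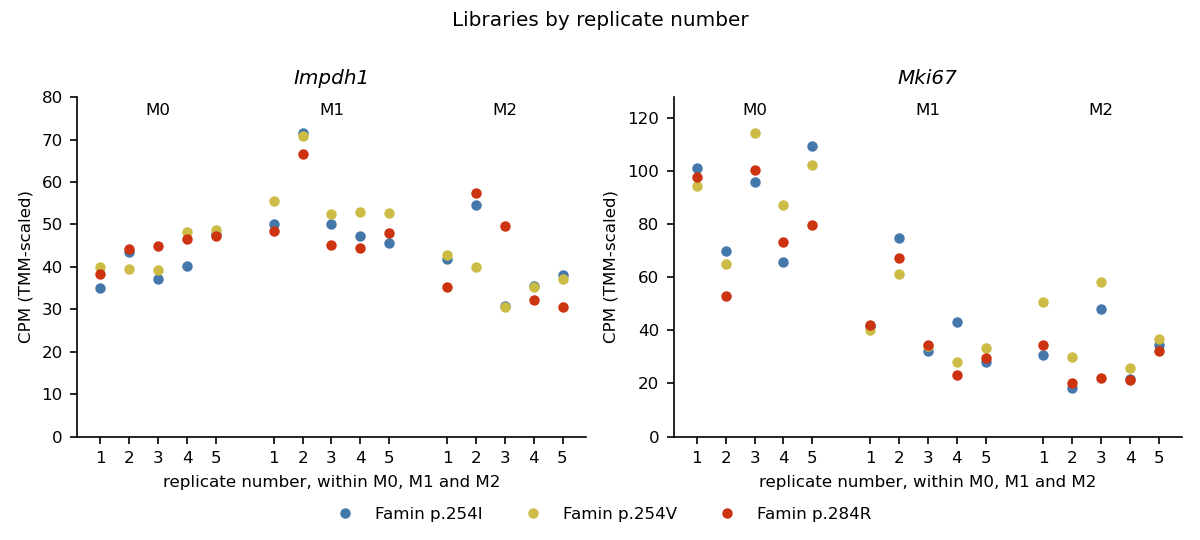
TMM-scaled CPM of *Impdh1* (left) and of the proliferation marker *Mki67* (right) against replicate number within M0, M1 and M2, 1 point a library, coloured by genotype. In M1 the 3 libraries of number 2 are the highest for both genes, at 66.7 to 71.5 and 61.2 to 74.6 CPM.

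*Impdh2* had 7.41, 8.45 and 10.4 CPM in M1. Its log2 fold change of 0.19 (SE 0.07, adjusted p = 0.016) was lost without replicate 2 of *Famin* p.254V (0.15, adjusted p = 0.051) and without all libraries of number 2 (0.10, adjusted p = 0.22). *Gmps* had 40.6, 44.5 and 48.9 CPM in M1, and its log2 difference was 0.02 (95% interval -0.07 to 0.11, adjusted p = 0.71).

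**Figure D3:**
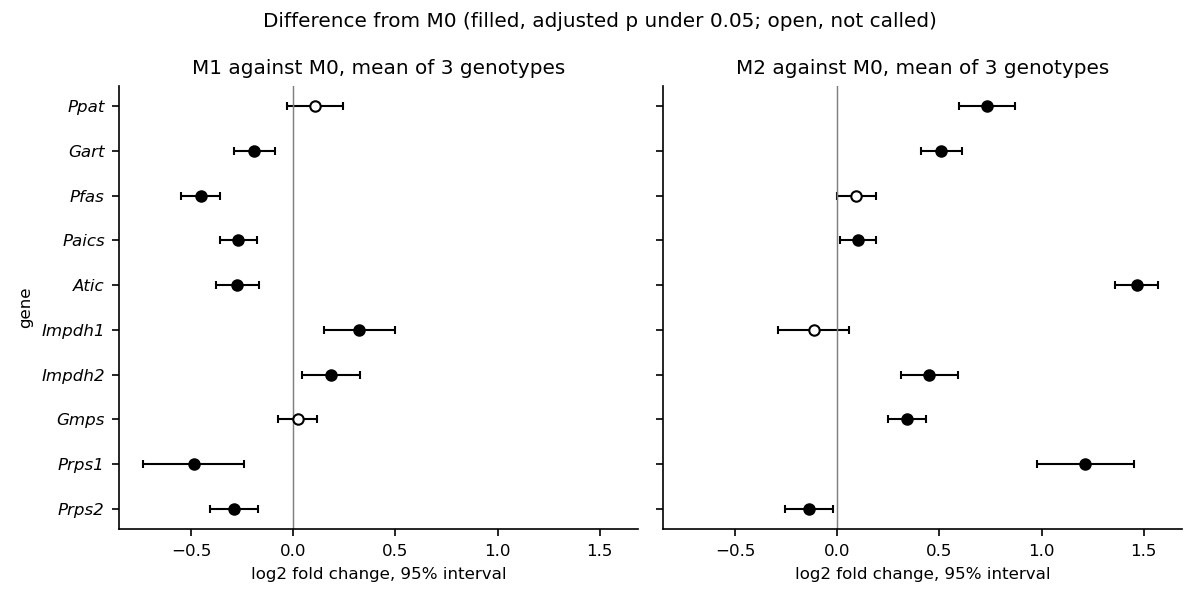
Log2 fold change with its 95% interval (x axis) of each member (y axis) in M1 (left) and M2 (right) against M0, as the mean of 3 genotypes; filled points have an adjusted p under 0.05. *Atic* at 1.47 and *Prps1* at 1.21 lie farthest right in M2, and *Prps1* at -0.49 and *Pfas* at -0.46 farthest left in M1.

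In the direct comparison of M1 with M2, all 10 members were called, 1 higher and 9 lower in M1, where 79.1% of all genes were called, 39.0% higher and 40.1% lower. *Impdh1* was the member higher in M1 (log2 0.44, SE 0.09, adjusted p = 1.6e-05). *Atic* differed by -1.74 (SE 0.05, adjusted p = 9.3e-29) and *Prps1* by -1.70 (SE 0.12, adjusted p = 3.1e-16) on the log2 scale. *Atic*, *Prps1*, *Gart* (-0.70) and *Pfas* (-0.55) had ranges apart, and 35.7% of all genes did. *Prps2* was the member closest to its threshold (-0.15, adjusted p = 0.016), and its call was lost without replicate 4 of *Famin* p.254V or replicate 4 of *Famin* p.284R.

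Ratios within a library, taken on CPM per kb, set related members against each other. Their level depends on the exon lengths used, while their change between polarizations does not. *Impdh1* exceeded *Impdh2* in all libraries, with medians of 5.36 in M0 (4.05 to 6.20), 5.71 in M1 (4.62 to 6.75) and 3.35 in M2 (2.98 to 4.79). No 50-base words of *Impdh1* were shared with other genes, against 39.3% of those of *Impdh2*, so the level of this ratio is uncertain. The ratio of *Prps2* to *Prps1* had a median of 2.90 in M0 (2.11 to 3.96), 3.33 in M1 (2.49 to 4.25) and 1.14 in M2 (0.490 to 2.03). In some M2 libraries *Prps1* was the higher of the pair. The M2 range of the PRPP synthetase pair lay wholly below the M0 and M1 ranges. *Paics* and *Ppat*, which share their start region, did not keep a fixed ratio. Its median was 13.7 in M0 (11.5 to 15.7), 9.91 in M1 (7.89 to 12.3) and 9.35 in M2 (6.22 to 11.7). The ratio of *Atic* to *Gart* was 0.681 in M0 (0.609 to 0.721), 0.627 in M1 (0.557 to 0.705) and 1.30 in M2 (1.14 to 1.51), with M2 apart from both.

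**Figure D4:**
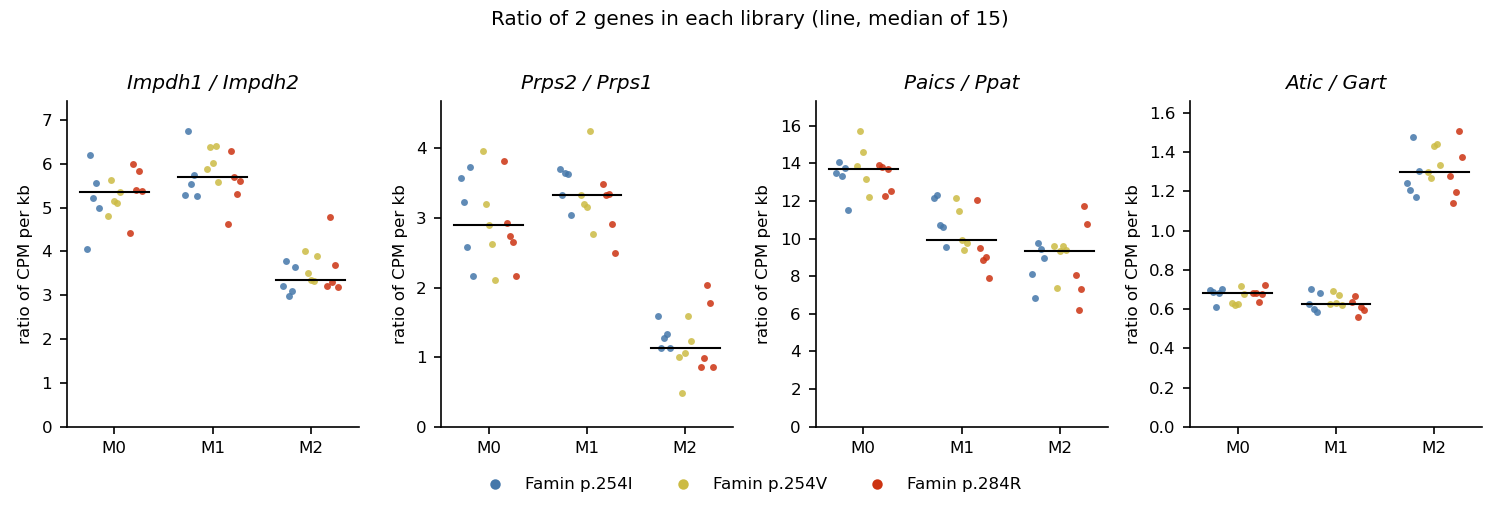
Ratio of CPM per kb for *Impdh1* to *Impdh2*, *Prps2* to *Prps1*, *Paics* to *Ppat* and *Atic* to *Gart* (y axes, from 0) in each library by polarization (x axis), coloured by genotype, with the median of 15 as a line. The *Prps2* to *Prps1* ratio drops to a median of 1.14 in M2 and the *Atic* to *Gart* ratio climbs to 1.30.

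The other genes that feed the pathway or compete with it moved in mixed directions. The counts in this and the next lists stand beside the shares of all genes tested against M0. These were 37.0% called higher and 39.8% lower in M2, and 37.2% higher and 40.5% lower in M1. Of the 11 tested genes of AMP and GMP formation outside the members, 9 were higher and 1 lower in M2, and 5 were higher and 5 lower in M1. *Ak1*, an adenylate kinase gene, had 8.81 ± 1.43 CPM (SD, n = 15) in M0 and 48.8 ± 11.1 in M2, and *Ampd3*, an AMP deaminase, fell to 22.3 ± 5.46 in M2 from 66.1 ± 8.44. *Adssl1*, an adenylosuccinate synthase gene, had 132 ± 16.4 CPM in M0 and 41.4 ± 4.31 in M1.

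Among 10 tested genes of PRPP and pentose phosphate supply, 6 were higher and 2 lower in M2, and 6 were higher and 3 lower in M1. *Tkt*, transketolase, rose in M2 from 413 ± 24.1 to 819 ± 89.4 CPM. Of 18 genes of serine and folate supply, which provide one-carbon units to GART and ATIC, 7 were higher and 7 lower in M2, and 6 were higher and 7 lower in M1. *Psat1*, of serine synthesis, rose from 43.2 ± 13.6 CPM in M0 to 164 ± 32.0 in M1 and 129 ± 24.3 in M2. *Mthfd2*, the mitochondrial folate enzyme, had 25.2 ± 11.3 CPM in M0 and 86.4 ± 20.2 in M1. *Folr2*, of the same list, fell from 400 ± 94.1 CPM in M0 to 117 ± 19.0 in M1 and 176 ± 46.2 in M2.

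Salvage and breakdown genes were mostly higher in M1 and mostly lower in M2. Of 11 tested, 7 were higher and 4 lower in M1, with a median log2 fold change of 0.42, and 2 were higher and 7 lower in M2, with a median of -0.29. *Pnp*, the purine nucleoside phosphorylase gene, and *Nt5e* were on the list but not among the genes tested. *Ada*, adenosine deaminase, had 5.18 ± 0.645 CPM in M0, 25.9 ± 4.93 in M1 and 3.26 ± 0.513 in M2. *Gda*, guanine deaminase, went from 23.4 ± 2.25 CPM in M0 to 190 ± 67.5 in M2. The pyrimidine list held synthesis genes and also kinase genes, among them *Uck1* and *Uck2*, whose enzymes act in nucleoside salvage. Of its 10 genes, 7 were higher and 3 lower in M2 (median 0.51), and 4 were higher and 5 lower in M1 (median -0.24). *Uck2*, a uridine-cytidine kinase, had 12.4 ± 3.18 CPM in M0, 3.49 ± 1.80 in M1 and 27.2 ± 8.49 in M2.

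Markers of cell division were mostly lower in M2 and in M1. Of 12 cell cycle genes, 10 were lower and 0 higher in M2 (median log2 fold change -1.27), and 9 were lower and 1 higher in M1 (median -0.66). Of 13 genes of dNTP supply and replication, 8 were lower and 3 higher in M2, and 8 were lower and 2 higher in M1. *Mki67* had 87.2 ± 18.4 CPM in M0, 40.9 ± 15.2 in M1 and 32.3 ± 12.0 in M2. Among 13 tested regulators known to act on such genes, 7 were higher and 4 lower in M2, and 8 were higher and 5 lower in M1. The transcription factor gene *Myc* had 17.7 ± 6.75 CPM in M0, 4.89 ± 1.30 in M1 and 67.6 ± 5.00 in M2. The part of *Myc* or of cell division in the levels of the members was not tested.

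The genes whose pattern over the 9 group means was nearest to that of 3 chosen members were found among 11151 genes, by the root mean square difference of centred log2(CPM + 1). For *Ppat* they were *Hspa4* (0.0318), *Nol11* (0.0357) and *Lyar* (0.0407), and *Gart* was the nearest member (0.129). For *Impdh1* they were *Rhof* (0.0374), *Gm5113* (0.0390) and *Skiv2l* (0.0437). For *Impdh2* they were *Pus1* (0.0291), *Cdyl* (0.0328) and *Wdr70* (0.0344). The 9 means come from the same 15 mice.

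The comparison of *Famin* genotypes asks whether a variant of the purine enzyme FAMIN goes with other levels of the synthesis genes. None of the 10 members was called in *Famin* p.284R or p.254V against p.254I, as the mean over polarizations, within M0, M1 or M2, or in the interactions with M1 and M2 (edgeR), nor with DESeq2 or limma-voom. In the averaged comparisons 0.0232% of all genes were called for p.284R and 0.0155% for p.254V, so that calls were rare throughout. For p.284R 0.271% were called within M1 and 0.00775% within M2, and no gene was called in the other comparisons within a polarization or in an interaction. Averaged over polarizations, the members' log2 differences lay between -0.09 and 0.06 for p.284R and between -0.04 and 0.15 for p.254V, and their 95% intervals reached from -0.22 to 0.27 and from -0.18 to 0.39. This fit takes the 3 cultures of a mouse as independent. With counts summed per mouse, 5 mice a genotype, the intervals reached from -0.28 to 0.45 and from -0.20 to 0.60. At unadjusted p under 0.05 there were 0 members in either averaged comparison. Such intervals limit the size of a difference and do not show that the levels were equal.

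Within a polarization, the members with the smallest unadjusted p were *Prps1* and *Prps2*. *Prps1* in M2 had 17.5, 21.0, 21.2, 20.3 and 22.1 CPM in *Famin* p.254I (replicates 1 to 5), 25.6, 49.1, 25.9, 18.8 and 20.9 CPM in p.254V, and 29.0, 23.7, 13.4, 15.2 and 28.7 CPM in p.284R. All groups overlapped, and p.254V held 1 library far above the others. The log2 difference of p.254V from p.254I was 0.46 (95% interval 0.06 to 0.86, unadjusted p = 0.025, adjusted p = 1.0), the only member under an unadjusted 0.05 in a comparison of genotypes. Without replicate 2 of p.254V the difference was 0.16 (adjusted p = 0.99).

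*Prps2* in M1 had 45.8, 55.4, 43.6, 51.7 and 47.0 CPM in p.254I, 45.9, 52.0, 43.1, 44.1 and 42.7 CPM in p.254V, and 47.5, 59.9, 39.0, 32.6 and 33.9 CPM in p.284R. Replicates 3, 4 and 5 of p.284R were below all p.254I libraries and replicate 2 was above them. The log2 difference of p.284R from p.254I was -0.19 (95% interval -0.40 to 0.01, unadjusted p = 0.059, adjusted p = 0.76). Without replicate 2 of p.284R it was -0.35 and called (adjusted p = 0.034), and 0.922% of all genes were then called. Within replicate numbers, p.284R minus p.254I was negative in all 5 numbers for *Pfas* and *Paics* in M1, and p.254V minus p.254I for *Impdh2* in M2, out of 30 combinations of gene and polarization for each variant. No combination was positive in all 5. The log2 differences ran from -0.343 to -0.001 for *Pfas*, from -0.206 to -0.032 for *Paics* and from -0.308 to -0.103 for *Impdh2*. Among so many combinations such runs can arise by chance, and they were not tested.

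**Figure D5:**
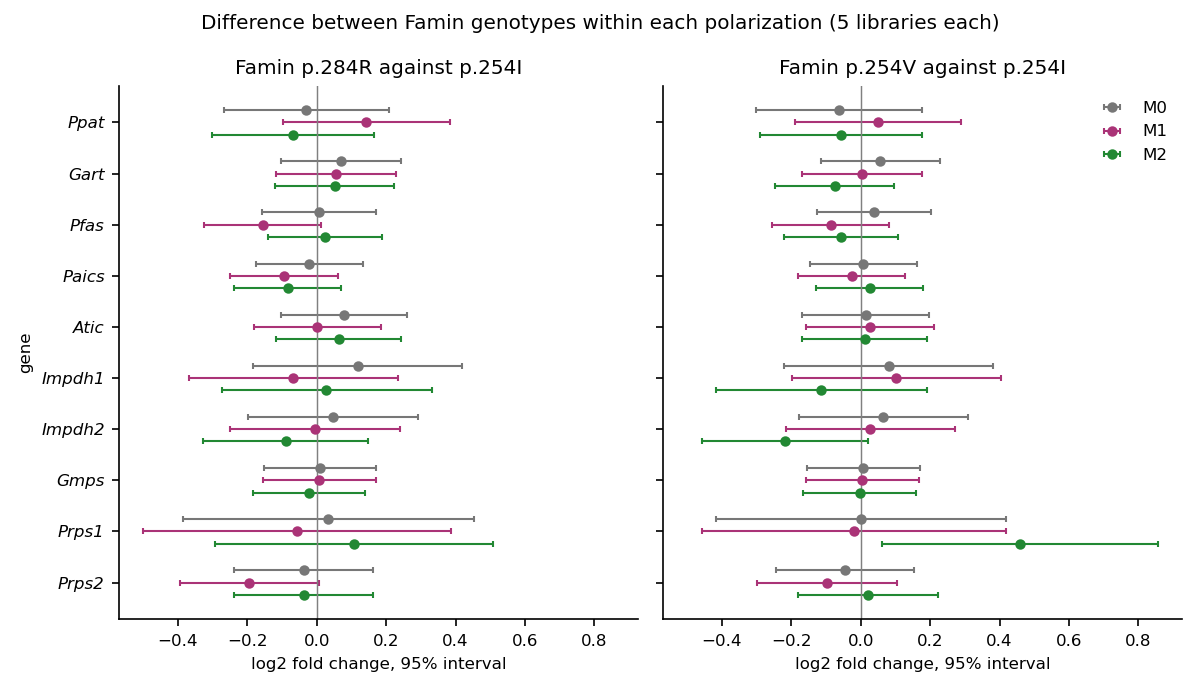
Log2 fold change with its 95% interval (x axis) of each member (y axis) in *Famin* p.284R (left) and p.254V (right) against p.254I, separately in M0, M1 and M2 (colours), 5 libraries a group. The interval excludes 0 only for *Prps1* in M2 of p.254V (0.06 to 0.86), which was not called after adjustment over all genes.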

How the data were processed

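Poly(A) RNA of 45 macrophage cultures was sequenced as single reads of 50 bases. According to the study's methods and the submitters' processing notes, reads were checked with FastQC, trimmed with Trim Galore and aligned to mm10 with HISAT2, and limma was used for testing. The series description names other trimming and alignment tools, and the counting tool, its annotation and its use of strand were not given in the sources used here. The authors deposited raw counts per gene and a table of CPM, which corresponded to whole reads (100% of values, tolerance 0.01).

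The deposited counts were fitted with edgeR 4.0.16 (R 4.3.3; quasi-likelihood, TMM scaling, 9 groups, 12905 genes after the filter on low counts), and p-values were adjusted over all genes by Benjamini-Hochberg, with calls at an adjusted p under 0.05. Quasi-dispersions were first estimated in the legacy way and then in the current way, which is reported. Levels are TMM-scaled CPM. By total counts, before this scaling, 1 CPM was 17.2 to 43.7 reads. Exon lengths and positions came from GENCODE release 21 of the mouse. The fit was tested on simulated data. DESeq2 1.42.0 and limma 3.58.1 were alternatives.

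Cultures with the same genotype and number in the sample titles were taken as those of 1 mouse. Same-numbered samples deviated together: correlations over 8404 genes exceeded 0.1 in 15 of 15 pairs of genotypes in M0, 15 of 15 in M1 and 13 of 15 in M2, and in 37 of 45 pairs of cultures of a mouse. All members are described, and other genes are named as the most changed in each direction of their list with at least 1 CPM, or as the nearest in pattern; a few items that these rules pick are not reported here. Members and lists were chosen with earlier results of these data known.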

Additional observations from a re-analysis of the deposited data

Results flagged for a closer look

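In 90 groups of 5 libraries (10 genes in 9 groups), 6 held a library far from the other 4 by Dixon's criterion, where chance gives about 1 in 20, or 4.5. For *Impdh1* in M1 it was replicate 2 in every genotype, with 71.5 CPM in *Famin* p.254I (others 45.5 to 50.2), 70.9 CPM in p.254V (52.5 to 55.4) and 66.7 CPM in p.284R (44.4 to 48.6). In M2 of p.254V, replicate 2 was high for *Gmps* at 62.6 CPM (53.6 to 54.7) and for *Prps1* at 49.1 CPM (18.8 to 25.9), and replicate 1 was low for *Pfas* at 16.8 CPM (18.7 to 19.3).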

How the results depend on the processing

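Up to 27 alternatives were run for each comparison, 5 of them chosen after seeing the data: reads recovered from the CPM table, legacy quasi-dispersions, and leaving out M0 library 4 or M1 library 5 of *Famin* p.254I or number 2 in all genotypes. Of the values for single genes, 4028 stayed on their side of the threshold, 7 gained a call and 15 lost one. No called value changed sign, but 302 uncalled differences did, all in comparisons of genotypes or interactions. Of the counts of members called, 404 stayed within 1.5 times, and that for p.284R against p.254I in M1 ranged from 0 to 1 over fits that left out 1 mouse. With the replicate number as a block, 8 members were called in M1 and 8 in M2 against M0, 10 in M1 against M2 and 0 between genotypes, and this block changed no member's call. *Pfas* in M2 against M0 was also called with mouse as a random block in limma-voom (0.10, adjusted p = 0.036). Over all genes, the 35 calls for p.284R in M1 became 78 with the block, 64 with DESeq2 or without number 2, 11 with limma-voom, 7 when that tool also blocked on mouse, 1 with only the libraries compared, and 6 to 119 without 1 mouse. The fewest reads a library were those of *Prps1* (115 to 1222) and *Impdh2* (131 to 409).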
